A study of Homo sapiens with 12 samples.

Results

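The 9 genes described here, SERPINB1, SERPINB3, SERPINB4, SERPINB5, SERPINB6, SERPINB7, SERPINB8, SERPINB9 and SERPINB13, are clade B serpins with known transcripts in epidermis. They were selected by gene symbol among the 58735 genes of the count table, in all 12 libraries. RNA selected by poly-A tail was sequenced from N/TERT-2G, an immortalised line of human skin keratinocytes, in a study whose subject is vulvar lichen sclerosus, a chronic inflammation of skin at the genitals. The cells received ATF3 siRNA, APOE siRNA, CXCL14 siRNA or a negative control siRNA, with 3 libraries in each of the 4 groups. All wells got 100 pmol of siRNA and 5 µl of a cationic lipid reagent, and fresh medium after 6 h, so the control cells were transfected too. ATF3 encodes a transcription factor that cells induce under stress, APOE an apolipoprotein and CXCL14 a chemokine of epithelia. Whether the 3 libraries of a group came from separate cultures is not stated, so every p-value rests on library-to-library spread, which may be technical.

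Serpins are inhibitors that trap a protease: the enzyme cuts an exposed loop of the serpin, which then folds over and holds the enzyme covalently. The clade B members lack a classical signal peptide and act mainly inside cells, and their genes lie in clusters on human chromosomes 6 and 18. In epidermis they are known for restraining cathepsins, furin and proteases of granulocytes and lymphocytes, and loss of SERPINB7 or SERPINB8 in people causes disorders of skin scaling.

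In the genome build of the deposited tables, hg38, the chromosome 6 genes were SERPINB1 (chr6:2832332-2842006), SERPINB9 (chr6:2887266-2903280) and SERPINB6 (chr6:2948159-2972165), all on the minus strand. On chromosome 18 the order was SERPINB5 (chr18:63476761-63505085, plus strand), SERPINB13 (chr18:63586989-63604639, plus), SERPINB4 (chr18:63637259-63644298, minus), SERPINB3 (chr18:63655197-63661963, minus), SERPINB7 (chr18:63752935-63805376, plus) and SERPINB8 (chr18:63969925-64019779, plus). The last 250 bases before the transcription start, from RefSeq promoters of GRCh38.p14, are shown for 4 of them. RefSeq starts can differ from the gene starts in the deposited table. SERPINB3 and SERPINB4 are shown because they are adjacent copies whose reads are hard to assign, with the bases that differ between them in capitals. The SERPINB3 window was chr18:63661894-63662143 and the SERPINB4 window chr18:63644257-63644506, both on the minus strand and written 5′ to 3′.
SERPINB3: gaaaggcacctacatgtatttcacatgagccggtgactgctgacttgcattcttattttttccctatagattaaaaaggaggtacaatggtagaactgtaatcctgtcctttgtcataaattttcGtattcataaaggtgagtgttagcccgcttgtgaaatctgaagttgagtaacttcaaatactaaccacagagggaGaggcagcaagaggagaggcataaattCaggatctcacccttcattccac
SERPINB4: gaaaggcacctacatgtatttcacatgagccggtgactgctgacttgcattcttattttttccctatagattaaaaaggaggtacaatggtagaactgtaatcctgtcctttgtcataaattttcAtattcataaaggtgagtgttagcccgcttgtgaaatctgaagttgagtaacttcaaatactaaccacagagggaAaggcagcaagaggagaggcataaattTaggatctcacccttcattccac
The 2 windows were identical at 247 of 250 positions. Their transcripts in GENCODE release 29 were 94.2% identical over 1777 aligned columns, with a longest shared run of 129 bases, and 23.9% of the 50-base stretches of SERPINB3 also occurred in SERPINB4. None of the other 35 pairs of the 9 genes shared a stretch of 50 bases (0%). A read inside a shared stretch cannot be assigned to either gene, so the levels of SERPINB3 and SERPINB4 are uncertain relative to each other, and sums of both are given below.

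SERPINB13 and SERPINB8 are shown because their windows hold the letters TGANTCA and because both genes rose with ATF3 siRNA. With N as any base, these letters are a loose form of the core that dimers of the AP-1 family, to which ATF3 belongs, can bind. Capitals mark those letters. The SERPINB13 window was chr18:63587093-63587342 and the SERPINB8 window chr18:63969831-63970080, both on the plus strand.
SERPINB13: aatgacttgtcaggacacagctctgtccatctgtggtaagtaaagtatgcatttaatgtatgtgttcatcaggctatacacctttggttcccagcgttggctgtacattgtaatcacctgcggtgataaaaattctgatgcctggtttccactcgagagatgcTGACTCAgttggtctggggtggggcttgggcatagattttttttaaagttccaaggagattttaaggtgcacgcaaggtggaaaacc
SERPINB8: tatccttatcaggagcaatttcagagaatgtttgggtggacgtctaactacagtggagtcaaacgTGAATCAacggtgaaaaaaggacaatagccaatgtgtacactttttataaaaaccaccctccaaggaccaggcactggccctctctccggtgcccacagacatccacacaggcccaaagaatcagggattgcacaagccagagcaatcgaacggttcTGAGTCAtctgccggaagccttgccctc
TGANTCA was searched on both strands, although its core reads alike on either, from 250 bases before to 50 bases after each RefSeq start. It began 87 bases before the start in SERPINB13, and 185 and 28 bases before it in SERPINB8. SERPINB5 and SERPINB7 held it as well, so 4 of the 9 genes had it in at least 1 of their windows, against 9.37% of 27305 genes with a RefSeq promoter. SERPINB7 has 3 such windows and SERPINB6 has 4, and more windows give more chances of a match. The middle base was A in the only SERPINB5 match and in the farther SERPINB8 match. The share over all genes likewise admits any middle base. The letters TGACGTCA, the cyclic AMP response element, were in 0 of the 9 genes and in 2.25% of all genes. SERPINB5 and SERPINB7 were not called with ATF3 siRNA (log2 0.17 and -0.11), while SERPINB1, SERPINB3 and SERPINB9 rose with it and have no such letters in their windows. A match describes the letters in the window and does not show a bound site.

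Total counts per library ran from 16225691 to 22246755, and a count of 0 allows up to 3 counts, which correspond to 0.135 to 0.185 CPM (read counts relative to the library total). Each siRNA lowered its own target by edgeR's quasi-likelihood test: the log2 fold change was -1.81 ± 0.08 (SE) for ATF3 (adjusted p = 1.37e-09), -4.02 ± 0.35 for APOE (adjusted p = 1.67e-07) and -3.61 ± 1.16 for CXCL14 (adjusted p = 0.0143). CXCL14 was low already in the control, with 24 reads over its libraries (mean 0.490 CPM), against 2 reads (0.0357 CPM) with CXCL14 siRNA. CXCL14 itself was 4.11 higher in log2 with APOE siRNA than with control siRNA (edgeR adjusted p = 3.48e-06). Its level with APOE siRNA varied widely, from 4.27 to 12.3 CPM (mean 8.56 ± 4.06; SD, n = 3). ATF3 averaged 68.3 ± 3.86 CPM (SD, n = 3) with CXCL14 siRNA, against 42.2 ± 1.49 CPM with control siRNA. Keratinocyte markers (KRT5, KRT14, TP63, KRT6A and SFN) were high in every library, with summed levels of 31530 to 33577 CPM in ATF3 siRNA, 38842 to 41658 CPM in APOE siRNA, 17187 to 18003 CPM in CXCL14 siRNA and 25953 to 29438 CPM in control siRNA libraries. The 7 immune markers summed to 2.58 to 5.08 CPM in ATF3 siRNA, 5.75 to 6.25 CPM in APOE siRNA, 0.981 to 1.42 CPM in CXCL14 siRNA and 2.12 to 3.22 CPM in control siRNA libraries, and PTPRC, CD3E, LYZ and TYROBP were at 0 in all 4 groups. CD14 held most of that sum and was higher with APOE siRNA (5.89 CPM, against 2.28 CPM in control siRNA; log2 1.37; edgeR adjusted p = 0.000145) and lower with CXCL14 siRNA (1.19 CPM; -0.93; adjusted p = 0.00843). The 7 fibroblast markers summed to 32.6 to 40.8 CPM in ATF3 siRNA, 74.3 to 87.9 CPM in APOE siRNA, 14.6 to 17.8 CPM in CXCL14 siRNA and 25.4 to 34.2 CPM in control siRNA libraries, mostly COL1A1, while COL3A1 was at 0 in ATF3 siRNA, APOE siRNA and control siRNA libraries. DCN was higher with APOE siRNA (0.537 CPM; log2 2.31; edgeR adjusted p = 0.0134) and CXCL14 siRNA (0.638 CPM; 2.55; adjusted p = 0.00417) than with control siRNA (0.102 CPM). It had 28 reads with APOE siRNA and 37 with CXCL14 siRNA, against 5 with control siRNA. DCN thus passed the filter on low counts only through the groups where it was high. COL1A1, the other of the 2 tested fibroblast markers, was called higher with APOE siRNA (80.4 CPM) than with control siRNA (28.8 CPM). With CXCL14 siRNA it was called lower (15.2 CPM). The part of these markers in the serpin results was not tested.

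Levels of different genes were set side by side per transcript length, as the deposited FPKM (fragments scaled to gene length and sequencing depth). In ATF3 siRNA libraries the FPKM order was SERPINB5 (163.5 ± 9.23; SD, n = 3), SERPINB7 (36.5), SERPINB1 (20.0), SERPINB8 (6.95), SERPINB13 (5.10), SERPINB6 (3.95), SERPINB3 (0.435), SERPINB9 (0.373) and SERPINB4 (0.111). SERPINB5, or maspin, which lacks protease inhibition and is known as a tumour suppressor of epithelia, was the most abundant in all 4 groups, with 190.3 ± 13.2 FPKM in APOE siRNA, 119 ± 5.23 FPKM in CXCL14 siRNA and 146 ± 4.59 FPKM in control siRNA libraries. It made up 69.9% of the summed CPM of the 9 genes in ATF3 siRNA, 73.2% in APOE siRNA, 67.4% in CXCL14 siRNA and 70.5% in control siRNA libraries (means of 3). SERPINB7 was second in every group. SERPINB6 has a listed length of 13201 bases, the longest of the 9, which lowers its FPKM.

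The ranks below these 2 genes differed between the groups. In APOE siRNA libraries SERPINB13 (8.63 ± 0.954 FPKM) overlapped SERPINB1 (10.1 ± 0.587 FPKM) in places 3 and 4. With CXCL14 siRNA, SERPINB13 (6.20 ± 0.730 FPKM), SERPINB8 (5.19 ± 0.307 FPKM) and SERPINB1 (4.82 ± 0.237 FPKM) held places 3 to 5, and each overlapped the next over the 3 libraries. In control siRNA libraries SERPINB1 stood in place 3 at 13.9 ± 1.49 FPKM, above SERPINB8 (5.04), SERPINB6 (3.87) and SERPINB13 (2.69 ± 0.132), and none of these neighbours overlapped. SERPINB9 (0.185 FPKM), SERPINB3 (0.0790 FPKM) and SERPINB4 (listed at 0) came last with control siRNA, and SERPINB9 and SERPINB3 overlapped there. They overlapped in ATF3 siRNA libraries too, as did SERPINB9 and SERPINB4 in APOE siRNA libraries.

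**Figure D1:**
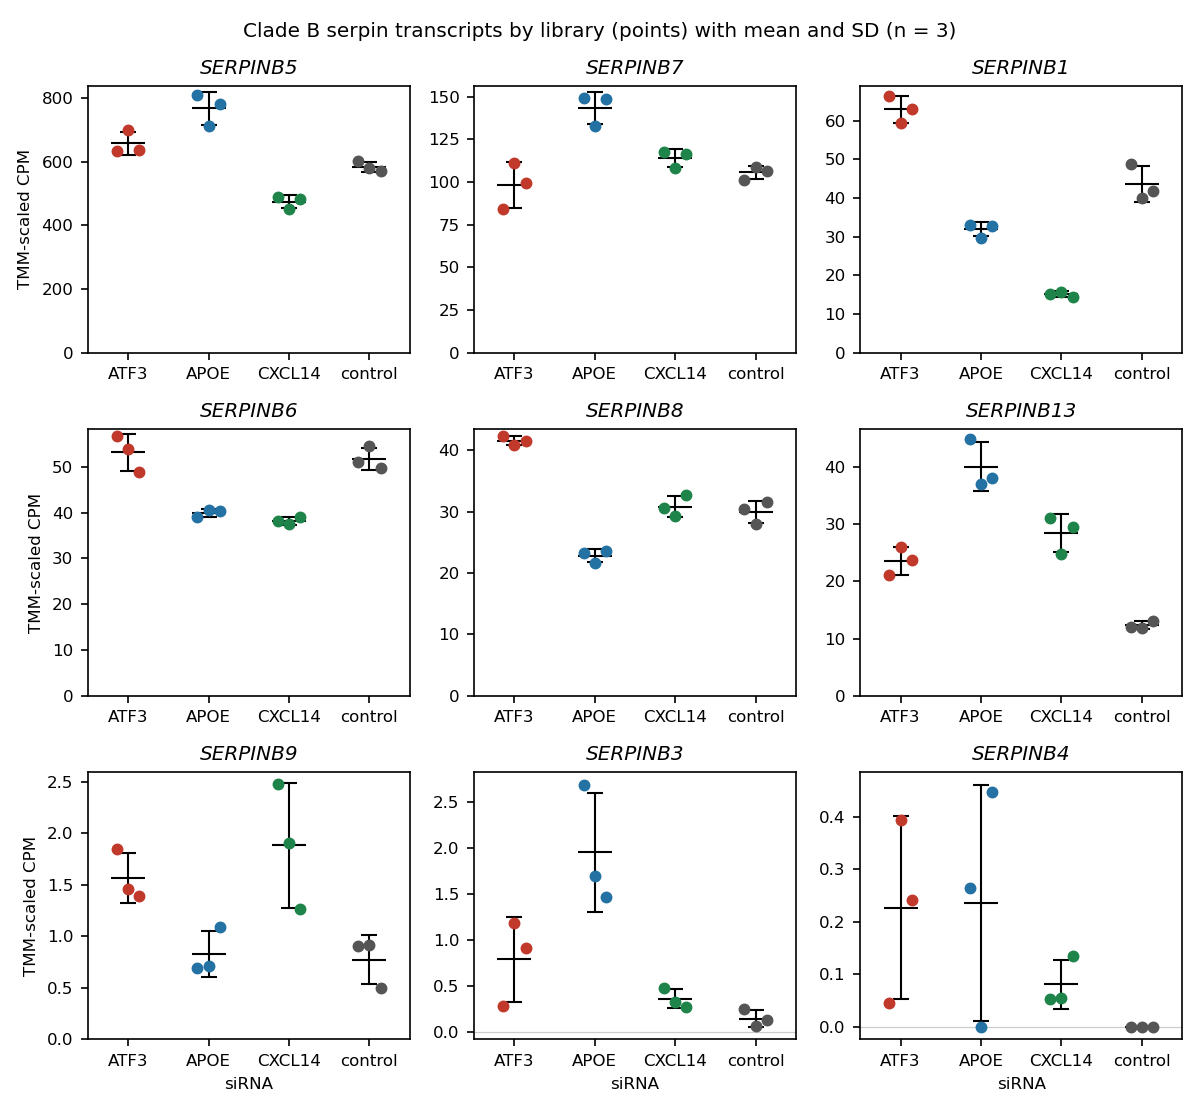
Abundance of the 9 clade B serpins in CPM scaled by TMM (y axes, linear, a separate scale for each gene) in the 3 libraries of each siRNA group (x axes); points are libraries, horizontal bars the mean and whiskers the SD (n = 3). SERPINB13 was higher in each of the 3 targeting groups than in all control libraries, SERPINB1 was lowest with CXCL14 siRNA at 14.3 to 15.8 CPM, and SERPINB4 had no read in the control libraries.

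Each siRNA was compared with control siRNA in a fit of all 12 libraries, and a gene was called at an adjusted p under 0.05. The 3 comparisons share the same control libraries. Of the 9 genes, 8 passed the filter on low counts and SERPINB4 did not. With ATF3 siRNA 5 of 8 (62.5%) rose and 0 fell, where 20.4% of all 14920 tested genes were called (11.2% higher and 9.14% lower). That 5 was 3 with limma-voom and without ATF3 siRNA replicate 2, control siRNA replicate 2 or control siRNA replicate 3. With APOE siRNA 4 rose and 3 fell (87.5% called), where 44.8% of all genes were called (22.3% higher and 22.5% lower). With CXCL14 siRNA 2 rose and 3 fell, where 55.8% of all genes were called (27.4% higher and 28.4% lower), so 5 of 8 was close to that background. Median log2 fold changes of the 8 genes were 0.50 with ATF3 siRNA, 0.24 with APOE siRNA and 0.08 with CXCL14 siRNA, beside 0.00, 0.01 and 0.01 over all tested genes. Without SERPINB3, which passed the filter only through the groups where it was high, 4 of 7 rose and 0 fell with ATF3 siRNA (median 0.47), 3 rose and 3 fell with APOE siRNA (0.08), and 2 rose and 3 fell with CXCL14 siRNA (0.04), a count chosen after the data were seen. In bulk RNA, fewer cells of a kind and less RNA per cell cannot be told apart.

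**Figure D2:**
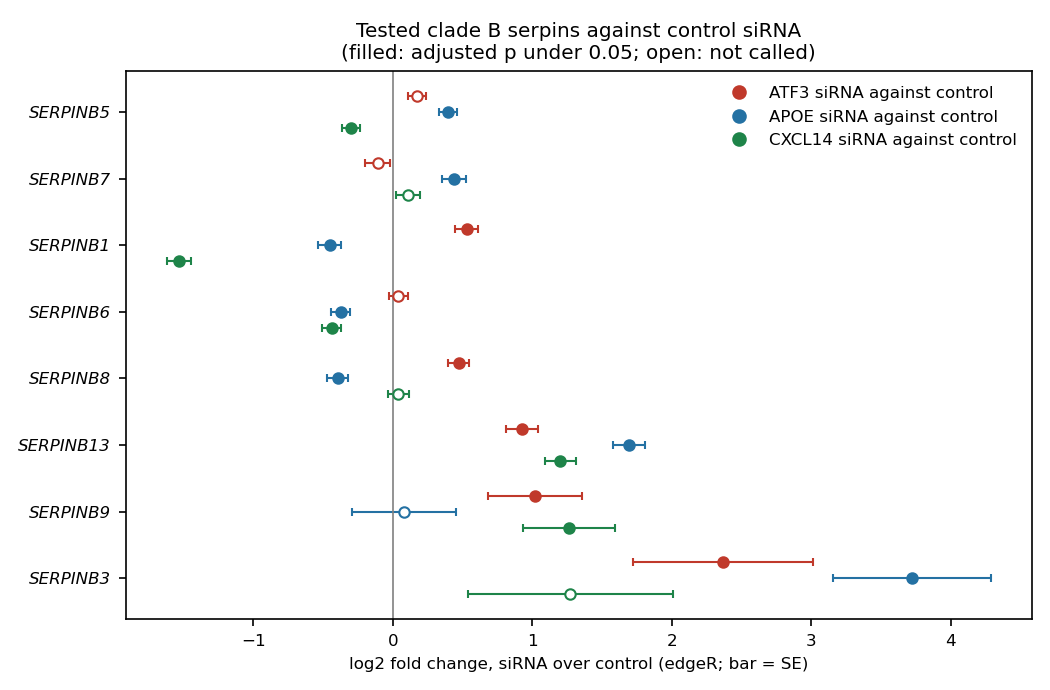
Log2 fold changes (x axis) against control siRNA of the 8 tested clade B serpins (y axis) for ATF3, APOE and CXCL14 siRNA, with SE as bars; filled points had an adjusted p under 0.05 in edgeR. SERPINB13 lay to the right of 0 for all 3 siRNAs, while SERPINB1 ran from 0.53 with ATF3 siRNA to -1.53 with CXCL14 siRNA.

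SERPINB13 blocks cathepsins L and K, SERPINB3 papain-like cathepsins, and SERPINB4 cathepsin G and mast cell chymase. SERPINB13 had 21.1, 26.0 and 23.7 CPM in ATF3 siRNA, 44.9, 37.0 and 38.2 CPM in APOE siRNA and 31.2, 24.8 and 29.4 CPM in CXCL14 siRNA libraries, against 12.1, 11.9 and 13.1 CPM in control siRNA libraries. Each of the 9 libraries with a targeting siRNA was above the highest control library. SERPINB13 rose 1.90-fold with ATF3 siRNA (log2 0.93 ± 0.11 SE; edgeR adjusted p = 3.26e-05), 3.24-fold with APOE siRNA (1.69 ± 0.11; adjusted p = 7.36e-09) and 2.30-fold with CXCL14 siRNA (1.20 ± 0.11; adjusted p = 1.54e-07). Of the 8 tested genes it was the only one called higher in all 3 comparisons. Between siRNAs, SERPINB13 was lower with ATF3 siRNA than with APOE siRNA (log2 -0.77 ± 0.10; edgeR adjusted p = 2.38e-05) and higher with APOE siRNA than with CXCL14 siRNA (log2 0.49 ± 0.10; adjusted p = 0.000668). Its libraries overlapped between ATF3 siRNA and CXCL14 siRNA (log2 -0.27 ± 0.11; adjusted p = 0.0376), and that call was lost when any of ATF3 siRNA replicates 1 and 3 or CXCL14 siRNA replicates 1 and 3 was left out (adjusted p from 0.0669 to 0.152).

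SERPINB3 was far rarer. It had 6, 21 and 15 reads in ATF3 siRNA, 51, 31 and 23 reads in APOE siRNA and 9, 6 and 6 reads in CXCL14 siRNA libraries, against 4, 1 and 2 reads in control siRNA libraries. It passed the filter through the groups where it was high: 5 libraries, 3 with APOE siRNA and 2 with ATF3 siRNA, held 10 reads or more. SERPINB3 rose with APOE siRNA (1.95 ± 0.650 CPM, against 0.142 ± 0.0919 CPM in control siRNA, SD, n = 3; log2 3.72 ± 0.56 SE; edgeR adjusted p = 5.45e-05) and with ATF3 siRNA (0.788 ± 0.464 CPM; log2 2.37 ± 0.65 SE; adjusted p = 0.0169). With CXCL14 siRNA it was not called (0.358 ± 0.105 CPM; log2 1.27 ± 0.73; adjusted p = 0.152), although its 3 libraries did not overlap those of the control. The call with ATF3 siRNA was lost with limma-voom (adjusted p = 0.0511) and without ATF3 siRNA replicate 2 (0.0806), control siRNA replicate 2 (0.0739) or control siRNA replicate 3 (0.0509). Ratios of summed counts, scaled by TMM library size, were 5.26 for ATF3 siRNA (95% counting interval 2.34 to 13.9), 13.9 for APOE siRNA (6.53 to 35.5) and 2.48 for CXCL14 siRNA (1.02 to 6.90) over control siRNA, and these intervals cover counting error only.

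SERPINB4 had 1, 7 and 4 reads in ATF3 siRNA, 5, 0 and 7 reads in APOE siRNA and 1, 1 and 3 reads in CXCL14 siRNA libraries, against 0 reads in each control siRNA library. Set against a floor of 3 counts over the 3 control libraries, the 12 reads seen with ATF3 siRNA were 3.51-fold higher. The 12 reads seen with APOE siRNA were 3.71-fold higher than that floor. These ratios leave out the counting error of the 12 reads. The 95% counting intervals against the 0 reads of the control began lower, at 2.44 for ATF3 siRNA and 2.58 for APOE siRNA. That for CXCL14 siRNA, with 5 reads against 0, began at 0.757, so a difference with CXCL14 siRNA was not detectable at this depth. The sum of SERPINB3 and SERPINB4 was 6.76-fold higher with ATF3 siRNA (95% counting interval 3.07 to 17.6), 15.5-fold higher with APOE siRNA (7.30 to 39.5) and 3.07-fold higher with CXCL14 siRNA (1.30 to 8.38) than with control siRNA. These intervals, too, cover counting error only. In edgeR with the 2 genes added, the difference between CXCL14 siRNA and control siRNA was not called. SERPINB3 was not called there in any of 20 alternatives (edgeR, DESeq2 or limma-voom adjusted p from 0.0800 to 0.357). How reads in shared stretches were counted is not given, and any left uncounted are missing from the sum as well. Between siRNAs, SERPINB3 was lower with ATF3 siRNA than with APOE siRNA (log2 -1.35 ± 0.41 SE; edgeR adjusted p = 0.0153) and higher with APOE siRNA than with CXCL14 siRNA (2.45 ± 0.46; adjusted p = 0.000251). The first of these calls was lost without ATF3 siRNA replicate 1 (adjusted p = 0.0790) or APOE siRNA replicate 1 (0.0947). ATF3 siRNA and CXCL14 siRNA did not differ at the threshold (1.09 ± 0.52; adjusted p = 0.0864), but did without ATF3 siRNA replicate 1 (1.54; adjusted p = 0.0106). SERPINB3 overlaps SERPINB11 on the opposite strand, which had at most 2 reads in a library.

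SERPINB1, SERPINB6 and SERPINB9, the chromosome 6 genes, inhibit proteases that leukocytes carry: SERPINB1 blocks neutrophil elastase and proteinase 3, SERPINB6 cathepsin G, and SERPINB9 granzyme B. SERPINB1 had 66.3, 59.4 and 63.1 CPM in ATF3 siRNA, 33.0, 29.8 and 32.9 CPM in APOE siRNA and 15.2, 15.8 and 14.3 CPM in CXCL14 siRNA libraries, against 48.8, 40.1 and 41.9 CPM in control siRNA libraries. No 2 groups overlapped, and the order was ATF3 siRNA, control siRNA, APOE siRNA, CXCL14 siRNA. Relative to control siRNA, SERPINB1 rose with ATF3 siRNA (log2 0.53 ± 0.08 SE; edgeR adjusted p = 0.000272), fell with APOE siRNA (-0.45 ± 0.08; adjusted p = 0.000367) and fell with CXCL14 siRNA (-1.53 ± 0.09; adjusted p = 5.67e-10). The difference between ATF3 siRNA and CXCL14 siRNA was 4.17-fold (log2 2.06 ± 0.09; adjusted p = 3.09e-11), the most significant of any clade B serpin in the 6 comparisons.

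SERPINB6 had 56.8, 53.9 and 48.9 CPM in ATF3 siRNA, 39.0, 40.6 and 40.3 CPM in APOE siRNA and 38.1, 37.4 and 39.2 CPM in CXCL14 siRNA libraries, against 51.0, 54.5 and 49.8 CPM in control siRNA libraries. It fell with APOE siRNA (log2 -0.37 ± 0.07 SE; edgeR adjusted p = 0.000402) and with CXCL14 siRNA (-0.44 ± 0.07; adjusted p = 5.55e-05). ATF3 siRNA and control siRNA libraries overlapped (0.04 ± 0.07; adjusted p = 0.728), as did APOE siRNA and CXCL14 siRNA libraries (0.06 ± 0.07; adjusted p = 0.459). SERPINB6 was higher with ATF3 siRNA than with APOE siRNA (0.41 ± 0.07; edgeR adjusted p = 0.000178) or CXCL14 siRNA (0.48 ± 0.07; adjusted p = 2.23e-05), with no overlap of libraries.

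SERPINB9 was low, with 40, 26 and 23 reads in ATF3 siRNA, 13, 13 and 17 reads in APOE siRNA and 47, 35 and 28 reads in CXCL14 siRNA libraries, against 15, 15 and 8 reads in control siRNA libraries. All ATF3 siRNA and CXCL14 siRNA libraries lay above the control libraries. It rose with CXCL14 siRNA to 1.88 ± 0.607 CPM, against 0.771 ± 0.239 CPM in control siRNA (SD, n = 3; log2 1.27 ± 0.33 SE; edgeR adjusted p = 0.00378). The rise with ATF3 siRNA (1.57 ± 0.243 CPM; log2 1.02 ± 0.34) had an adjusted p of 0.0426 and was lost in 11 of 21 alternatives, the DESeq2 and limma-voom tests and the omission of any ATF3 siRNA or control siRNA library among them (adjusted p from 0.0310 to 0.153 over the 21). With APOE siRNA it was 0.827 ± 0.223 CPM and not called (log2 0.08 ± 0.37; adjusted p = 0.882). SERPINB9 was lower with APOE siRNA than with CXCL14 siRNA (log2 -1.19 ± 0.32; edgeR adjusted p = 0.00510) and higher with ATF3 siRNA than with APOE siRNA (0.94 ± 0.33; adjusted p = 0.0336). The call between ATF3 siRNA and APOE siRNA was lost without ATF3 siRNA replicate 1 or 2 or APOE siRNA replicate 1 or 2 (adjusted p from 0.0551 to 0.122).

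SERPINB8, an inhibitor of the proprotein convertase furin, had 42.4, 40.8 and 41.5 CPM in ATF3 siRNA, 23.3, 21.6 and 23.5 CPM in APOE siRNA and 30.5, 29.2 and 32.7 CPM in CXCL14 siRNA libraries, against 30.4, 28.0 and 31.5 CPM in control siRNA libraries. It rose with ATF3 siRNA (log2 0.47 ± 0.07 SE; edgeR adjusted p = 0.000305) and fell with APOE siRNA (-0.39 ± 0.08; adjusted p = 0.000530). CXCL14 siRNA libraries overlapped the control (0.04 ± 0.07; adjusted p = 0.661). The difference between ATF3 siRNA and APOE siRNA was 1.82-fold (log2 0.87 ± 0.07; edgeR adjusted p = 1.86e-07). SERPINB8 was also higher with ATF3 siRNA (0.43 ± 0.07; adjusted p = 0.000103), and lower with APOE siRNA (-0.43 ± 0.08; adjusted p = 0.000122), than with CXCL14 siRNA. The genes HMSD and AC009802.1 overlap SERPINB8 and had at most 8 and 4 reads in a library.

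SERPINB5 had 632, 699.9 and 637 CPM in ATF3 siRNA, 810.3, 711 and 781 CPM in APOE siRNA and 487, 451 and 483 CPM in CXCL14 siRNA libraries, against 601, 578 and 569 CPM in control siRNA libraries. It rose with APOE siRNA (log2 0.40 ± 0.07 SE; edgeR adjusted p = 0.000122) and fell with CXCL14 siRNA (-0.30 ± 0.07; adjusted p = 0.000965). With ATF3 siRNA its libraries did not overlap the control, but it was not called (0.17 ± 0.07; adjusted p = 0.0753). Higher counts with APOE siRNA than with CXCL14 siRNA gave the largest difference of SERPINB5 between siRNAs (log2 0.70 ± 0.07; edgeR adjusted p = 1.61e-07), and ATF3 siRNA exceeded CXCL14 siRNA as well (0.47 ± 0.07; adjusted p = 1.42e-05). It was lower with ATF3 siRNA than with APOE siRNA (-0.22 ± 0.07; adjusted p = 0.0119), a call lost without ATF3 siRNA replicate 1 (0.0545) or APOE siRNA replicate 1 (0.0644).

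SERPINB7, whose loss causes a palmoplantar keratoderma, had 84.1, 111 and 99.2 CPM in ATF3 siRNA, 149, 133 and 149 CPM in APOE siRNA and 118, 108 and 117 CPM in CXCL14 siRNA libraries, against 101, 109 and 106 CPM in control siRNA libraries. It rose with APOE siRNA (log2 0.44 ± 0.09 SE; edgeR adjusted p = 0.000557). ATF3 siRNA (-0.11 ± 0.09; adjusted p = 0.415) and CXCL14 siRNA libraries (0.11 ± 0.09; adjusted p = 0.283) overlapped those of the control. The direct comparisons gave lower SERPINB7 with ATF3 siRNA than with APOE siRNA (-0.55 ± 0.09; edgeR adjusted p = 9.07e-05) and higher SERPINB7 with APOE siRNA than with CXCL14 siRNA (0.33 ± 0.09; adjusted p = 0.00364), though the second missed the threshold under scaling by library size alone (0.21; adjusted p = 0.0569). With ATF3 siRNA it was called lower than with CXCL14 siRNA (-0.22 ± 0.09; adjusted p = 0.0396) while the libraries overlapped. That call was lost without ATF3 siRNA replicate 1 or 3, CXCL14 siRNA replicate 1 or 3, or control siRNA replicate 2 (adjusted p from 0.0537 to 0.192).

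Between siRNAs, all 8 tested genes were called for ATF3 siRNA against APOE siRNA, 4 higher and 4 lower, where 38.2% of all genes were called (20.3% higher and 17.9% lower). That 8 was 5 without ATF3 siRNA replicate 1 or APOE siRNA replicate 1. For ATF3 siRNA against CXCL14 siRNA 4 were higher and 2 lower, where 53.7% of all genes were called (28.4% higher and 25.3% lower). For APOE siRNA against CXCL14 siRNA 5 were higher and 2 lower, where 55.5% of all genes were called (28.9% higher and 26.6% lower). With ATF3 siRNA, SERPINB1, SERPINB6, SERPINB8 and SERPINB9 stood above, and SERPINB3, SERPINB5, SERPINB7 and SERPINB13 below, their levels with APOE siRNA.

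Genes at the 2 clusters were then set in their chromosomal order with the other tested coding genes within 500 kb. Of the 5 tested chromosome 18 genes described above, SERPINB13 and SERPINB3, which lie between SERPINB5 and SERPINB7, had the largest log2 fold changes with all 3 siRNAs. For ATF3 siRNA these were 0.93 (SERPINB13) and 2.37 (SERPINB3), for APOE siRNA 1.69 and 3.72, and for CXCL14 siRNA 1.20 and 1.27. The 1.27 of SERPINB3 was not called (edgeR adjusted p = 0.152). Because SERPINB3 passed the filter only through the groups where it was high, its large values do not show a pattern by position. SERPINB2, between SERPINB7 and SERPINB8, had a log2 fold change of 0.94 with ATF3 siRNA, beside the 0.93 of SERPINB13. With PHLPP1, BCL2, KDSR and VPS4B it made 5 neighbours, of which 1 was higher and 0 lower with ATF3 siRNA, 1 higher and 2 lower with APOE siRNA, and 1 higher and 2 lower with CXCL14 siRNA. The shares called over all tested genes were 20.4%, 44.8% and 55.8% for the siRNAs in that order. KDSR, an enzyme of sphingolipid synthesis, rose with APOE siRNA and CXCL14 siRNA (log2 0.41 ± 0.07 SE with APOE siRNA, edgeR adjusted p = 0.000164, and 0.19 ± 0.07 with CXCL14 siRNA, adjusted p = 0.0324). The KDSR call with CXCL14 siRNA was lost in 6 alternatives. Among them were fits without CXCL14 siRNA replicate 1 or 2 or control siRNA replicate 1 or 2 (highest adjusted p 0.147). On chromosome 6, SERPINB1 and SERPINB9, which are next to each other among the tested genes, were called in opposite directions with CXCL14 siRNA (-1.53 and 1.27). Of the 8 neighbours there, 1 was higher and 1 lower with ATF3 siRNA, and 2 higher and 3 lower with APOE siRNA. With CXCL14 siRNA 1 was higher and 3 lower, and the shares over all tested genes are those given above. RIPK1 fell and PSMG4 rose with all 3 siRNAs. SLC22A23 rose with APOE siRNA (1.05 ± 0.14; edgeR adjusted p = 1.13e-05) and fell with CXCL14 siRNA (-0.45 ± 0.14; adjusted p = 0.0125). WRNIP1 (-0.94) and TUBB2A (-0.77) were called lower with APOE siRNA only, and NQO2 (-0.55) with CXCL14 siRNA only.

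**Figure D3:**
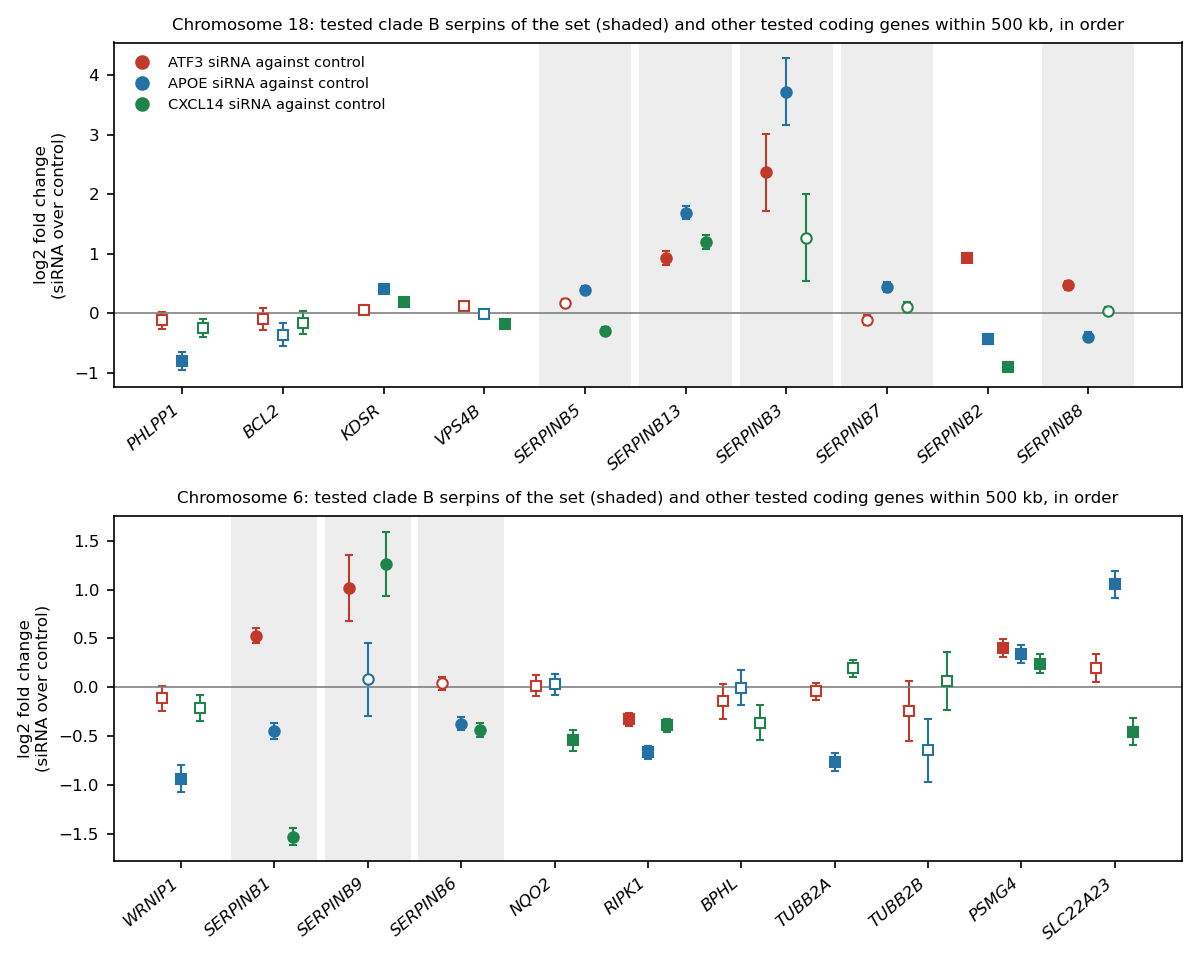
Log2 fold changes against control siRNA (y axis) of tested genes in chromosomal order (x axis) at the chromosome 18 and chromosome 6 clusters; circles on shading are the clade B serpins described here, squares the other tested coding genes within 500 kb, bars the SE, and filled symbols an adjusted p under 0.05. On chromosome 18 the circle of SERPINB3 reaches 3.72 with APOE siRNA and the square of SERPINB2 stands at 0.94, -0.44 and -0.90 for ATF3, APOE and CXCL14 siRNA, and on chromosome 6 SERPINB1 and SERPINB9 lie on opposite sides of 0 with CXCL14 siRNA.

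SERPINB2 (chr18:63871692-63903890), a further clade B member in the chromosome 18 cluster, inhibits urokinase. It averaged 318 ± 33.6 CPM in ATF3 siRNA, 123 CPM in APOE siRNA and 89.1 CPM in CXCL14 siRNA libraries, against 166 ± 17.6 CPM in control siRNA libraries. SERPINB2 rose with ATF3 siRNA (log2 0.94 ± 0.08 SE; edgeR adjusted p = 1.14e-06) and fell with APOE siRNA (-0.44 ± 0.08; adjusted p = 0.000467) and CXCL14 siRNA (-0.90 ± 0.08; adjusted p = 1.51e-07). SERPINB10, SERPINB11 and SERPINB12 were too low to be tested.

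Of 18 proteases that clade B serpins inhibit or bind, 12 were tested. CTSG and ELANE, the granulocyte targets of SERPINB1, SERPINB4 and SERPINB6, were at 0 in all 4 groups. With ATF3 siRNA 4 of the 12 rose and 0 fell, with APOE siRNA 4 rose and 5 fell, and with CXCL14 siRNA 3 rose and 2 fell. Over all tested genes, 20.4%, 44.8% and 55.8% were called in these 3 comparisons. CTSL, a target of SERPINB13, averaged 106 CPM in ATF3 siRNA, 69.5 CPM in APOE siRNA and 93.3 CPM in CXCL14 siRNA libraries, against 82.4 CPM in control siRNA libraries, and was called in each comparison (edgeR adjusted p = 0.000642, 0.00463 and 0.0233 in that order). CTSV, the cathepsin closest to CTSL, rose with ATF3 siRNA (log2 0.57 ± 0.10; adjusted p = 0.000679) and APOE siRNA (0.63 ± 0.10; adjusted p = 6.28e-05). CTSS fell with APOE siRNA (-2.37 ± 0.25; edgeR adjusted p = 1.29e-06) and CXCL14 siRNA (-3.22 ± 0.27; adjusted p = 4.29e-08). PLAU, urokinase, averaged 203 CPM in APOE siRNA and 59.2 CPM in CXCL14 siRNA, against 379.6 CPM in control siRNA libraries, and fell with both (adjusted p = 2.53e-06 and 1.59e-11). FURIN, the target of SERPINB8, rose with APOE siRNA (0.45 ± 0.07; adjusted p = 0.000119), where SERPINB8 fell. With ATF3 siRNA, where SERPINB8 rose, FURIN was not called (-0.004 ± 0.07; edgeR adjusted p = 0.982).

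Protease inhibitors of other families had 9 of 14 tested members higher and 0 lower with ATF3 siRNA, 7 higher and 1 lower with APOE siRNA, and 4 higher and 6 lower with CXCL14 siRNA. Over all tested genes, 11.2% were higher and 9.14% lower with ATF3 siRNA, and 22.3% and 22.5% with APOE siRNA. With CXCL14 siRNA these shares were 27.4% and 28.4%, and they are the background for each list here. PI3 (elafin) and SLPI, inhibitors of neutrophil elastase, rose with ATF3 siRNA and APOE siRNA and fell with CXCL14 siRNA, with edgeR adjusted p at most 7.00e-06. The log2 fold changes of PI3 were 1.90 with ATF3 siRNA, 2.88 with APOE siRNA and -0.89 with CXCL14 siRNA. Of 15 tested differentiation genes, 11 rose and 0 fell with ATF3 siRNA (median log2 1.69), 14 rose and 0 fell with APOE siRNA (2.25), and 4 rose and 5 fell with CXCL14 siRNA (-0.08). IVL, a cornified envelope precursor, averaged 85.3 CPM in ATF3 siRNA, 68.4 CPM in APOE siRNA and 11.8 CPM in CXCL14 siRNA, against 25.0 CPM in control siRNA libraries. Among 10 tested genes of inflamed epidermis, 8 rose and 0 fell with ATF3 siRNA, 5 rose and 1 fell with APOE siRNA, and 0 rose and 8 fell with CXCL14 siRNA. S100A8, an alarmin subunit, rose with ATF3 siRNA (1.83 ± 0.13; edgeR adjusted p = 1.37e-07) and APOE siRNA (1.68 ± 0.13; adjusted p = 4.44e-08) and fell with CXCL14 siRNA (-0.88 ± 0.14; adjusted p = 7.15e-05). Basal keratinocyte genes had 2 of 12 higher and 5 lower with ATF3 siRNA, 4 higher and 5 lower with APOE siRNA, and 0 higher and 10 lower with CXCL14 siRNA.

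**Figure D4:**
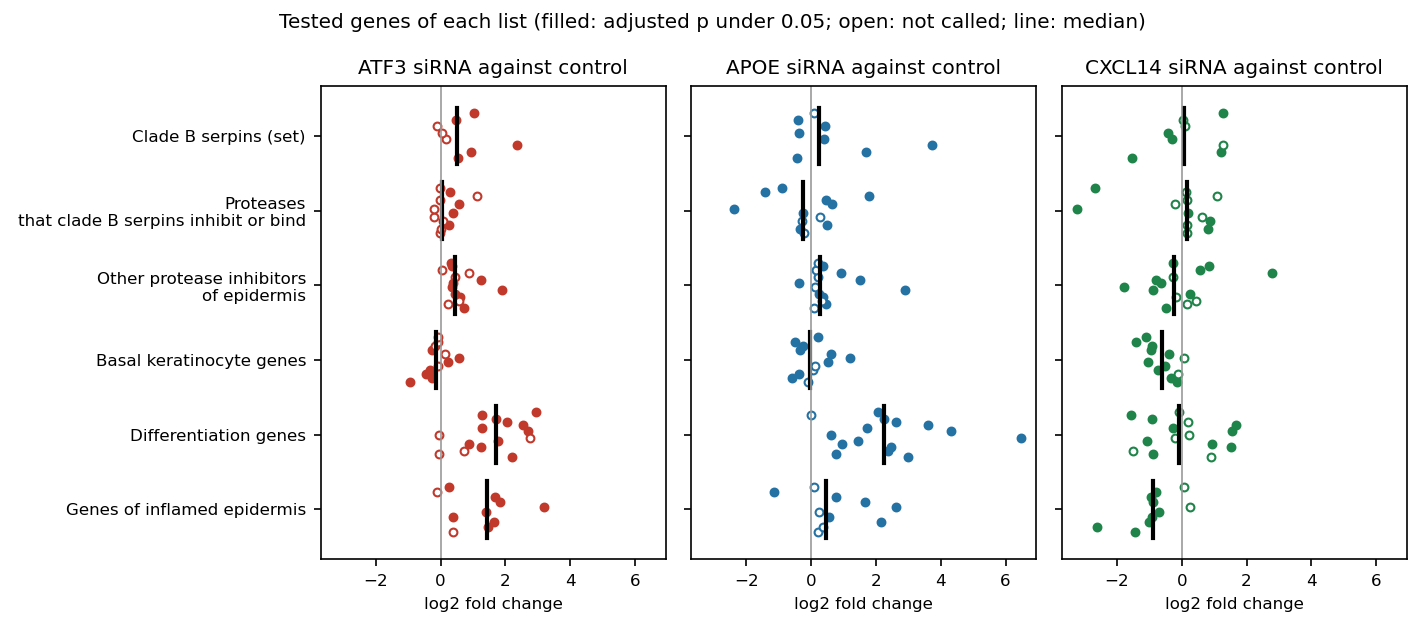
Log2 fold changes against control siRNA (x axes) of the tested genes of each list (y axis) for ATF3, APOE and CXCL14 siRNA; points are genes, filled where the adjusted p was under 0.05, and black lines are medians. Medians of the differentiation genes were 1.69, 2.25 and -0.08, and those of the clade B serpins 0.50, 0.24 and 0.08, for the 3 siRNAs in that order.

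For the 3 members whose group means spanned most, SERPINB3, SERPINB1 and SERPINB13, the most similar patterns were sought among 8747 genes, by the root mean square difference of the 3 log2 fold changes against control siRNA. The 4 groups and shared controls give only 3 values per gene, so the likeness is a description. SBSN was nearest to SERPINB3 (difference 0.26), with log2 fold changes of 2.53 with ATF3 siRNA, 3.61 with APOE siRNA and 1.68 with CXCL14 siRNA, followed by ALDH3B2 (0.84) and SPRR1A (0.91). IL1B, which encodes interleukin-1 beta, was nearest to SERPINB1 (0.08), with 0.40, -0.43 and -1.59 for the siRNAs in the same order, followed by P2RY2 (0.15) and NUCB2 (0.16). TINCR, a transcript known from human epidermal differentiation, was nearest to SERPINB13 (0.08), with 1.03, 1.76 and 1.27, followed by ISYNA1 (0.12) and IGFL2-AS1 (0.20).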

How the data were processed

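The authors deposited raw counts per gene and FPKM per gene and library. Per the submitters' processing notes, the build was hg38 and the tools included featureCounts 1.5.0-p3 and HISAT2 2.0.5; the annotation and strand setting are not given in the sources used here, so overlapping genes are uncertain. The deposited FPKM equalled count over length and a library size proportional to DESeq2 size factors, within 0.1% for all genes with at least 100 counts. Counts were filtered with filterByExpr, which left 14920 genes, scaled by TMM and fitted in edgeR 4.0.16 (R 4.3.3) by quasi-likelihood with 1 term per group over 12 libraries. P-values were adjusted by Benjamini-Hochberg over all tested genes of a comparison, and the SE is the log2 fold change over the square root of F. CPM are TMM-scaled. All 6 pairs of groups were compared. The code was tested on simulated data. Alternatives were DESeq2 1.42.0, limma-voom (limma 3.58.1), other scalings and filters, a replicate block, a 1.5-fold limit, SERPINB3 and SERPINB4 added, fits of only the groups compared, and each library left out.

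The members and gene lists were chosen with earlier results of these data known. All members are named; from each list up to 4 called genes with the smallest adjusted p could be named, of which a part is given, and CTSG, ELANE and FURIN were named after their values were seen. Total counts limit precision, with 3 counts as the floor. Counts of replicate pairs scattered 4.32 to 16.4 times more than counting alone.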

Additional observations from a re-analysis of the deposited data

How the results depend on the processing

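SERPINB13 kept its direction and call against control siRNA in all alternatives run, as did SERPINB3 with APOE siRNA, SERPINB1 with CXCL14 siRNA and SERPINB9 with CXCL14 siRNA. Of 1041 values of single members under an alternative, 977 kept direction and side of the threshold, 54 lost the threshold, 2 passed it and 8 changed sign. The count of members called for ATF3 siRNA against control siRNA was 3, in place of 5, under the stricter filter, where SERPINB3 and SERPINB9 were not tested, with limma-voom and with a 1.5-fold limit. With that fold limit it was 2 for APOE siRNA and 3 for CXCL14 siRNA against control siRNA, 5 for ATF3 siRNA against APOE siRNA, 1 for ATF3 siRNA against CXCL14 siRNA and 4 for APOE siRNA against CXCL14 siRNA, where a smaller change cannot be called. Leaving out each library in turn gave 3 to 5 for ATF3 siRNA, 7 to 7 for APOE siRNA and 5 to 5 for CXCL14 siRNA against control siRNA, 5 to 8 for ATF3 siRNA against APOE siRNA, 4 to 6 for ATF3 siRNA against CXCL14 siRNA and 7 to 7 for APOE siRNA against CXCL14 siRNA. The 3 came without ATF3 siRNA replicate 2, control siRNA replicate 2 or control siRNA replicate 3, and the 5 for ATF3 siRNA against APOE siRNA without ATF3 siRNA replicate 1 or APOE siRNA replicate 1.

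Sign changes were seen among values that were not called. SERPINB6 turned to -9.08e-06 with library size alone and ranged from -0.0144 (without ATF3 siRNA replicate 1) to 0.0972 over the left-out libraries for ATF3 siRNA against control siRNA, and to -0.0584 with library size alone for APOE siRNA against CXCL14 siRNA. SERPINB9 turned to -0.151 without APOE siRNA replicate 3 and -0.167 without control siRNA replicate 3 (highest 0.214 over the left-out libraries) for APOE siRNA against control siRNA, and to 0.00258 without CXCL14 siRNA replicate 1 (lowest -0.475) for ATF3 siRNA against CXCL14 siRNA. SERPINB8 turned to -0.00551 without CXCL14 siRNA replicate 3 and -0.00853 without control siRNA replicate 2 (highest 0.0779) for CXCL14 siRNA against control siRNA. The cause was not tested.

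With the replicate block, the counts were 6, 7 and 5 against control siRNA for ATF3, APOE and CXCL14 siRNA, and 8, 6 and 7 between siRNAs, with SERPINB5 called for ATF3 siRNA (0.17; edgeR adjusted p = 0.0409), where 27.7%, 49.8% and 60.1% of all genes were called against control siRNA and 44.4%, 58.4% and 60.0% between siRNAs. Libraries of equal number in different groups correlated at -0.0208 to 0.234 in their deviations (median 0.13), and libraries of different number at -0.238 to 0.10 (median -0.05). For 7 of 12 libraries the best match in every other group had the library's own number. Equal numbers thus correlated more in the median, though not every such pair was over 0.1. The labels do not say what a number marks, so the main fit did not pair the samples. If the numbers mark shared handling, the counts with the replicate block apply.

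Over all genes, 1916 were called for ATF3 siRNA against control siRNA without control siRNA replicate 1, in place of 3041. A 1.5-fold limit left 792, 2820 and 4259 against control siRNA for ATF3, APOE and CXCL14 siRNA, and 2271, 4142 and 4418 between siRNAs. Scaling by library size alone gave 1361 higher and 1734 lower (1678 and 1363 with TMM) for ATF3 siRNA against control siRNA, 3477 and 4897 (4239 and 3769) for ATF3 siRNA against CXCL14 siRNA, and 3379 and 5148 (4308 and 3974) for APOE siRNA against CXCL14 siRNA, and moved the median of all genes by -0.10 and -0.12 in the last 2. Depth limits SERPINB3, SERPINB4 and SERPINB9 most. SERPINB4 in a fit without the filter had adjusted p of 0.0290 for ATF3 siRNA, 0.0123 for APOE siRNA and 0.137 for CXCL14 siRNA against control siRNA.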
